A study of Mus musculus with 4 samples.

Results

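The low-ribosomal T barcodes are 277 of the 10602 cell barcodes in 4 droplet libraries of mouse B16F10 melanoma tumours. They were chosen by a rule on their counts, so the rule's own measures are given here as description. A barcode had to have at least 300 genes and 500 unique molecular identifier counts (UMIs, each 1 captured RNA molecule), a mitochondrial share of 5 to 20% of UMIs and a share of ribosomal protein mRNA under 10%. It also had to hold at least 2 UMIs summed over the T cell genes Cd3d, Cd3e, Cd3g, Trac, Themis and Bcl11b (the T gate), none of the natural killer (NK) genes Ncr1, Klrb1c and Klre1 (the NK gate), and fewer than 5 of the pigment genes Pmel, Mlana, Tyrp1 and Dct. The comparison set, called ribosomal-rich T barcodes, passed the same gates and depth filters with at most 20% mitochondrial UMIs and 10% or more ribosomal protein UMIs, and numbered 1008. A further 35 T barcodes were under 10% ribosomal and under 5% mitochondrial and belong to neither set.

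B16F10 is a pigmented mouse melanoma line, and its tumours were dissociated, cleared of red cells, debris and dead cells with commercial kits, and profiled with 10x 5′ gene expression chemistry. There was 1 library per group. The Control group is named without a treatment, aPD-1 received antibody to PD-1 (an inhibitory checkpoint receptor of T cells), D+F combined the anthracycline doxorubicin with the ROCK inhibitor fasudil, and D+F+P added the PD-1 antibody to that pair, 3 agents in all. Every group carried B16F10 tumours. Mouse strain, age, doses, times and the number of mice in a library are not given in the sources used here, and neither is any treatment of the control animals. Barcodes of 1 library are not replicates, so no test between groups was possible, and every interval below is an exact 95% interval that covers counting error only.

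Tumour-infiltrating CD8 T cells range from progenitor or memory-like cells, which express Tcf7 (the transcription factor TCF-1), to terminally differentiated or exhausted cells, which express inhibitory receptors such as Havcr2 (TIM-3), Pdcd1 (PD-1) and Lag3. Ribosomal protein mRNAs are abundant cytoplasmic messages in lymphocytes, and mitochondrial transcripts lie inside the organelle. The shares of both in a barcode are routinely read as quality measures in droplet data.

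The barcodes were thin. Their median was 847.5 UMIs in the aPD-1 library, 1139 in D+F and 867 in D+F+P (range 511 to 4220), against 4696, 3868 and 4924 UMIs in ribosomal-rich T barcodes of the same libraries. Median mitochondrial shares in these 3 libraries were 12.8, 14.2 and 11.2%, against 1.83%, 1.67% and 2.0% in ribosomal-rich T barcodes, and median ribosomal shares were 7.15%, 7.25% and 7.39% against 27.1%, 27% and 25.9%. The rule bounds these shares. The control library held 2 members, with 753 and 926 UMIs. In the D+F+P library the ribosomal share had 2 separate peaks, with 120 T barcodes at 6 to 8%, 10 at 16 to 18% and 59 at 30 to 32%. Around the threshold itself there was no gap: 28 members at 9 to 10% had a median of 730.5 UMIs and 9.89% mitochondrial UMIs, and 30 T barcodes just outside at 10 to 11% had 780 UMIs and 10.6%. The 94 D+F+P barcodes at 10 to 18%, counted as ribosomal-rich, were also thin, with a median of 922 UMIs and 6.87% mitochondrial UMIs. At the mitochondrial limits of D+F+P, 15 members at 5 to 6% had a median of 1034 UMIs and 15 barcodes just outside at 4 to 5% had 911, and 33 barcodes over 20% (median 1463 UMIs) met every other condition.

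**Figure D1:**
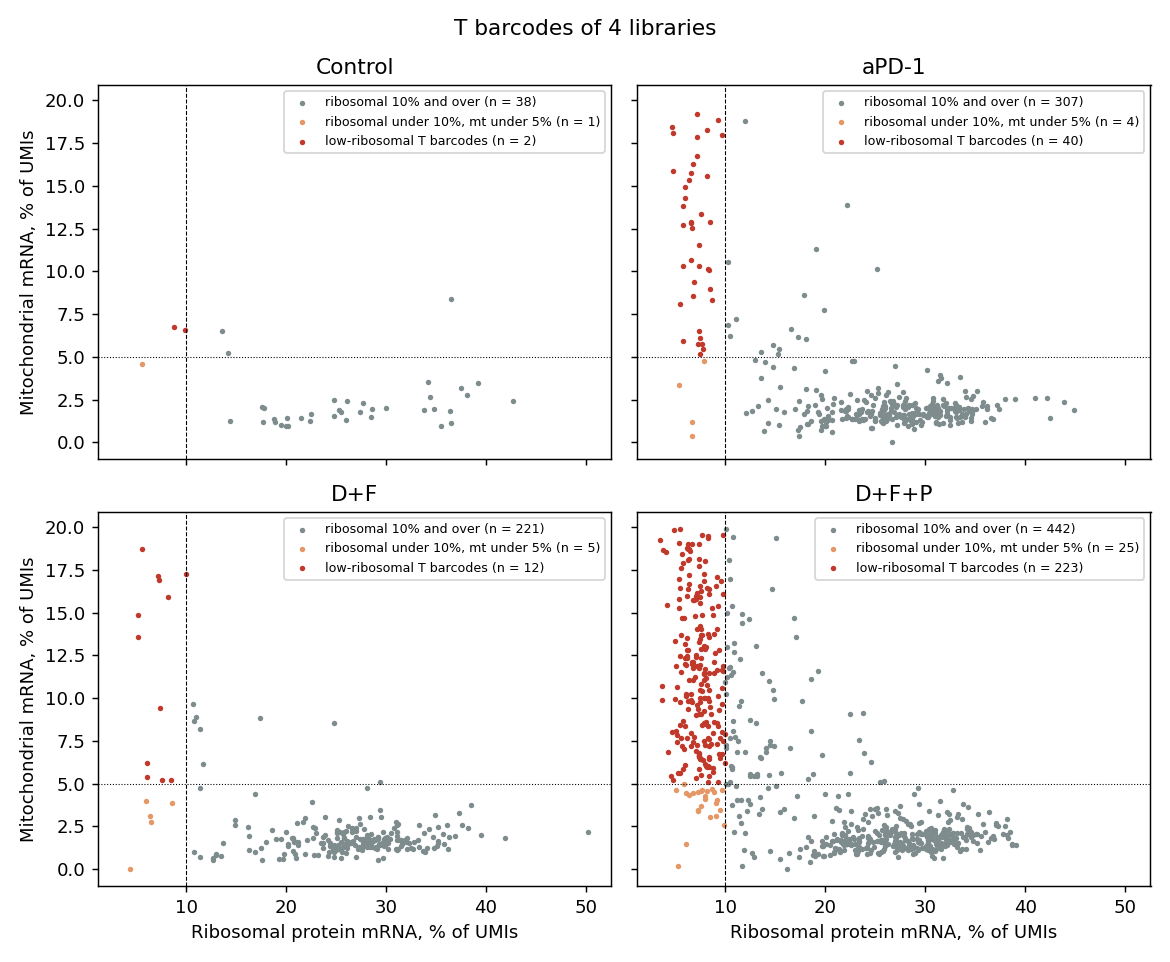
Each point is 1 T barcode, plotted by its ribosomal protein share (x axis, % of UMIs) and mitochondrial share (y axis, % of UMIs), 1 panel per library; dashed and dotted lines mark the 10% and 5% limits of the rule. The low-ribosomal T barcodes (red) number 2 in Control, 40 in aPD-1, 12 in D+F and 223 in D+F+P, where the grey ribosomal-rich points run up to the 10% line without a gap.

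The D+F+P library held 223 of the 277 barcodes, aPD-1 held 40, D+F 12 and Control 2. As a share of all T barcodes of the library they were 32.3% in D+F+P (interval 28.8 to 36.0, of 690), 11.4% in aPD-1 (8.27 to 15.2, of 351), 5.04% in D+F (2.63 to 8.64, of 238) and 4.88% in Control (0.596 to 16.5, of 41). The D+F+P interval lay above the other 3, and those of D+F and Control overlapped. With a minimum of 1000 UMIs the share was 17.6% in D+F+P (85 of 482) and 5.05% in aPD-1 (16 of 317), and with a T gate of 3 UMIs it was 21.7% and 5.43%. The D+F+P library as a whole was also the shallowest, with a median of 1644 UMIs per listed barcode against 7504 to 15094 in the others. Among NK barcodes (at least 1 NK gate UMI and at most 1 T gate UMI) the low-ribosomal share was also highest in D+F+P, at 44.7% (34.4 to 55.3, of 94), and was 25.6% in aPD-1, 17.2% in D+F and 3.13% in Control. Among melanoma barcodes (20 or more pigment UMIs, at most 1 T gate UMI and no NK gate UMI) it was 5.61% in D+F+P (3.76 to 8.01, of 499), 3.48% in aPD-1, 3.98% in D+F and 2.60% in Control. For both NK and melanoma barcodes the D+F+P interval overlapped those of aPD-1 and D+F. The melanoma gate asks for more UMIs than the T and NK gates, so the 3 types are not alike in depth. Low-ribosomal barcodes of D+F+P had a median of 9671 UMIs for melanoma, 682 for NK and 867 for T.

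**Figure D2:**
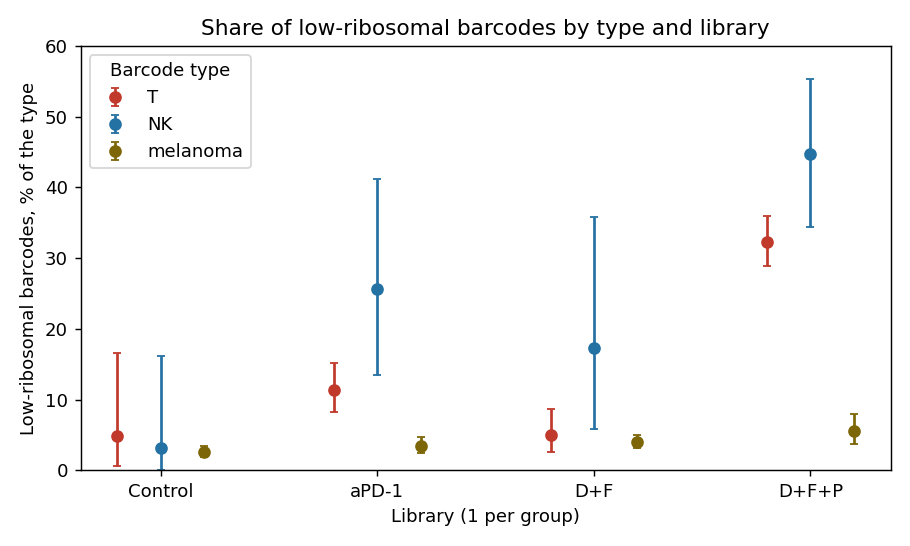
Low-ribosomal barcodes as a percentage of all T, NK and melanoma barcodes (y axis) in each of the 4 libraries (x axis), with exact 95% binomial intervals. The D+F+P library has the highest value for all 3 types, at 32.3% of T, 44.7% of NK and 5.61% of melanoma barcodes. Its NK and melanoma intervals overlap those of aPD-1 and D+F.

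The gates ask for fixed counts, whatever a barcode's depth. Of the 223 members in D+F+P, 110 had exactly 2 T gate UMIs, as did 23 of 40 in aPD-1 and 5 of 12 in D+F. A further 184 low-ribosomal D+F+P barcodes met every other condition with 1 T gate UMI. The NK gate asks for a count of 0, and among D+F+P barcodes with 2 or more T gate UMIs it removed 11 of 239 low-ribosomal ones (4.60%) and 167 of 626 at 10% ribosomal or over (26.7%). In aPD-1 it removed 2 of 42 and 158 of 484 (32.6%). Without the NK gate, an alternative chosen after the data were seen, low-ribosomal barcodes were 27% of T barcodes in D+F+P and 8.25% in aPD-1. Of all 835 barcodes in D+F+P with a low ribosomal and a 5 to 20% mitochondrial share, whatever their type, the members were 26.7%, and of the 227 in aPD-1 they were 17.6%. Across libraries, 69 barcode sequences occurred in more than 1 library, 4 of them were members in 1 (1 in D+F, 3 in D+F+P), and none was a member in more than 1.

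The T gate counts came mainly from the CD3 chains, the signalling subunits of the T cell receptor. Cd3e gave 265 of 818 gate UMIs (32.4%) in D+F+P members and was seen in 148 of 223 barcodes, Cd3g gave 205 and Cd3d 148. Themis, a thymocyte selection and receptor signalling factor, gave 79 (9.66% of gate UMIs, against 1.84% in ribosomal-rich T barcodes), and Bcl11b, a T lineage transcription factor, gave 52 (6.36% against 1.61%). No other gate gene was seen in 5 of 223 members in D+F+P, 2 of 40 in aPD-1 and 1 of 12 in D+F. A gate of 2 UMIs over Cd3d, Cd3e, Cd3g and Trac kept 184 of the 223, 31 of the 40 and 9 of the 12, so the rest passed only with Themis or Bcl11b UMIs. The T label was checked on 19 T cell genes outside the gate (Cd8a, Cd8b1, Trbc1, Trbc2 and 15 receptor signalling genes, a selection made after values were seen, several of which NK cells also express). At least 1 UMI of these was in 219 of 223 D+F+P members (98.2%), 40 of 40 in aPD-1 and 12 of 12 in D+F. With every barcode thinned at random to 500 UMIs, the mean over 20 draws was 94.1% in D+F+P members (92.4 to 96.0). It was 90.3% in ribosomal-rich T barcodes and 5.71% in low-ribosomal melanoma barcodes of that library. The 500 include ribosomal protein and mitochondrial UMIs. All other UMIs were 199099 of 244756 in D+F+P members and 2169125 of 3119773 in ribosomal-rich T barcodes. Values at 500 UMIs, here and below, thus rest on more of these other UMIs in the members. The 338 low-ribosomal D+F+P barcodes with no T gate UMI and no NK gate UMI were at 84.6%, close to the 88.0% of those with 1 T gate UMI, whereas in aPD-1 those with none were at 60.2%.

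Markers of other cell types were counted in the same barcodes. Pigment gate genes, capped at 4 UMIs by the rule, were in 116 of 223 D+F+P members, 30 of 40 in aPD-1 and 8 of 12 in D+F, at a summed level of 794, 1744 and 1126 CPM (counts scaled to a sum of 1e+06 UMIs neither ribosomal protein nor mitochondrial). Ribosomal-rich T barcodes had 154, 283 and 401 CPM. Melanocyte genes outside the gate were likewise higher in the members, at 331 CPM (D+F+P), 808 (aPD-1) and 375 (D+F) against 59.5, 117.2 and 146, with 6 of 6 of these genes seen in D+F+P and Tyr and Mcam at 0 in aPD-1. The 8 NK genes outside the gate summed to 924, 743 and 751 CPM in the members against 697, 920 and 614, with Klra4 at 0 in all 3 libraries. Macrophage and monocyte genes summed to 90.4 CPM in D+F+P members (233 in ribosomal-rich T barcodes), with 4 of 9 seen and C1qa, C1qc, Lyz2, Csf1r and Ms4a7 at 0. They summed to 194 CPM in aPD-1 members (322), and to 375 CPM in D+F members (91.9), there from 4 UMIs. Fibroblast collagens and proteoglycans were in 17 of 223 D+F+P members and summed to 216 CPM (78.4), against 32.3 CPM in aPD-1 members (201). Dendritic genes, which include Ccr7, gave 176 and 291 CPM in the members of D+F+P and aPD-1 with Flt3, Xcr1, Cd209a and Siglech at 0. B cell and endothelial genes were at most 32.3 CPM there, and neutrophil, erythroid and mast cell genes were at 0 in every member. The part of pigment, fibroblast and NK transcripts in the results below was not tested.

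Themis, Prkca, Havcr2 and Neat1, the genes that mark these barcodes, were each at a higher level in them than in ribosomal-rich T barcodes in the D+F+P and aPD-1 libraries. The contrast between the 2 sets was used in choosing the barcodes and Themis is a gate gene, so these levels are description. Themis, on GRCm38 chromosome 10 (28668360 to 28883818), stood at 397 CPM in D+F+P members (79 UMIs), 388 in aPD-1 (12 UMIs) and 844 in D+F (9 UMIs), against 97.3, 81.7 and 85.7 CPM. Prkca, which encodes protein kinase C alpha and lies on chromosome 11 (107933387 to 108343928), stood at 497 CPM (99 UMIs), 291 (9 UMIs) and 93.8 (1 UMI) against 101, 70.2 and 85.7. In D+F the 1 UMI of Prkca left it level with the ribosomal-rich value. Havcr2, on chromosome 11 (46454935 to 46481255), stood at 226 CPM (45 UMIs), 323 (10 UMIs) and 281 (3 UMIs) against 105, 135 and 116. Neat1, the long noncoding RNA that scaffolds paraspeckles in the nucleus, on chromosome 19 (5824708 to 5845478), stood at 1120 CPM (223 UMIs), 517 (16 UMIs) and 375 (4 UMIs) against 80.2, 72.6 and 55.1. The 2 control members held none of the 4. On the log2 scale the D+F+P members exceeded ribosomal-rich T barcodes by 2.30 for Prkca (interval 1.94 to 2.65), 1.11 for Havcr2 (0.62 to 1.58) and 3.80 for Neat1 (3.51 to 4.10).

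Few single barcodes showed these genes. At 500 UMIs per barcode, means over 20 draws in D+F+P were 16.2% of members with a Themis UMI (3.80% of ribosomal-rich T barcodes, 0.0106% of ribosomal-rich melanoma barcodes), 19.4% for Prkca (6.83%, 0.435%), 6.68% for Havcr2 (3.47%, 0.0212%) and 28.4% for Neat1 (5.79%, 12.7%). Untouched medians were 867, 4924 and 29485 UMIs in these 3 sets, and no barcode was left out by the thinning. The ribosomal-rich melanoma barcodes, which should lack the T cell genes, were far under the T barcodes for Themis, Prkca and Havcr2. For Neat1 they lay between the 2 T sets. Values of these 4 genes in low-ribosomal NK and melanoma barcodes are not given here. Whether their higher level is particular to T barcodes was therefore not tested. Malat1, also a nuclear long noncoding RNA, was higher in low-ribosomal than in other NK (log2 2.88) and melanoma (2.47) barcodes of D+F+P. In aPD-1 the members were at 18.9% for Themis (2.70% in ribosomal-rich T barcodes), 11.2% for Prkca (2.70%), 10.9% for Havcr2 (4.93%) and 26.4% for Neat1 (2.85%). Tcf7 was at 3.59% of D+F+P members (2.34%, melanoma 0.414%) and at 0 in aPD-1 members (1.34%).

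To describe the T states, each barcode was placed on the side whose genes had more UMIs. The terminal side summed Havcr2, Pdcd1, Lag3, Rgs16, Tox, Cd244, Cd160, Tnfrsf9 and Entpd1, and the memory side summed 9 genes, among them Tcf7, Lef1, Ccr7, Il7r, S1pr1, Klf2, Satb1 and Bach2. In D+F+P, 109 of 223 members were on the terminal side (48.9%, interval 42.1 to 55.6), 55 on the memory side (24.7%, 19.2 to 30.9), 14 were tied and 45 had no UMI of either list. In aPD-1, 30 of 40 were on the terminal side (75%, 58.8 to 87.3), 3 on the memory side, 1 was tied and 6 had none. In D+F, 10 of 12 were terminal, 1 memory and 1 without a UMI of either. Of the 2 control barcodes, 1 was on each side, with 7 terminal and 3 memory UMIs in the first and 4 and 10 in the second. Together these 2 held 13 Ccr7 UMIs and 2 Foxp3 UMIs, and both held a Cd8a or Cd8b1 UMI. Most members were thus on the terminal side in aPD-1 and D+F, and in D+F+P no side held over 48.9%. This turned with depth and the gate: the terminal side held 69.4% of D+F+P members with a minimum of 1000 UMIs and 62.8% with a T gate of 3 UMIs (87.5% and 76.5% in aPD-1). A single UMI decided the side of 58 of the 223 members in D+F+P, and 57 held UMIs of both lists.

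Depth bears on these shares, and ribosomal-rich barcodes show more UMIs of both lists. At 500 UMIs the memory side held 20.2% of D+F+P members (17.5 to 24.2 over 20 draws) and 10.6% of ribosomal-rich T barcodes (7.69 to 12.7), and the terminal side 41.7% (38.1 to 45.7) and 53.1% (50.7 to 55.4). The 2 ranges of draws did not overlap on either side. Ranges of draws come from thinning the same barcodes again and leave out the counting error over barcodes. Whether the shares differ beyond that error cannot be read from them. The thinning also left the members more UMIs that are neither ribosomal protein nor mitochondrial. In aPD-1 the memory side held 6.38% of members and 5.96% of ribosomal-rich T barcodes, and the terminal side 64.5% (57.5 to 72.5) and 69.2% (64.8 to 72.6), with overlapping ranges on both. In D+F the 12 members were at 78.3% terminal and 7.92% memory, against 53.6% and 9.84%. Ribosomal-rich melanoma barcodes of the D+F+P library were at 1.09% and 2.31%.

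By single genes, a Havcr2 UMI without a Tcf7 UMI was in 29 of 223 D+F+P members (13.0%), 9 of 40 in aPD-1 (22.5%) and 2 of 12 in D+F, and a Tcf7 UMI without Havcr2 was in 13 (5.83%), 0 and 0. Neither gene was seen in 180 of 223 D+F+P members, and 1 held both. At 500 UMIs, Havcr2 alone was in 6.39% of D+F+P members (4.48 to 8.07 over draws) and 3.47% of ribosomal-rich T barcodes (1.81 to 4.75), and in 10.9% (2.50 to 17.5) and 4.92% (3.26 to 7.49) in aPD-1. Tcf7 alone was in 3.30% and 2.34% in D+F+P. Both single genes were thus seen at least as often in D+F+P members as in ribosomal-rich T barcodes, with overlapping ranges over draws for each. The 0 of 40 for Tcf7 in aPD-1 allows up to 7.50% of barcodes with a UMI.

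Within D+F+P the side moved with both the ribosomal share and depth. At 500 UMIs the memory side held 18.8% of T barcodes under 6% ribosomal (49 barcodes), 18.1% at 6 to 8% (120), 22.0% at 8 to 10% (79) and 17.8% at 10 to 18% (94), then 8.16% at 18% and over (348, with a median of 6927 UMIs). The terminal side held 50.4, 41.1, 38.6, 38.8 and 56.5% in the same order. The 94 barcodes just above the 10% limit thus lay near the members on both sides, and the bin of 18% and over had the lowest memory share. These are means over draws and leave out the counting error over barcodes, so whether the bins differ beyond it was not decided. Among members by untouched depth, the memory side held 31.4% at 500 to 750 UMIs (70 barcodes), 26.5% at 750 to 1000 (68) and 17.6% at 1000 and over (85), and the terminal side 30.0, 42.6 and 69.4%. Terminal-side members had a median of 1046 UMIs and memory-side members 789. In ribosomal-rich T barcodes the memory side likewise had fewer UMIs, with a median of 2649 against 6927. The part of depth in the members' side shares was not tested beyond the thinning.

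**Figure D3:**
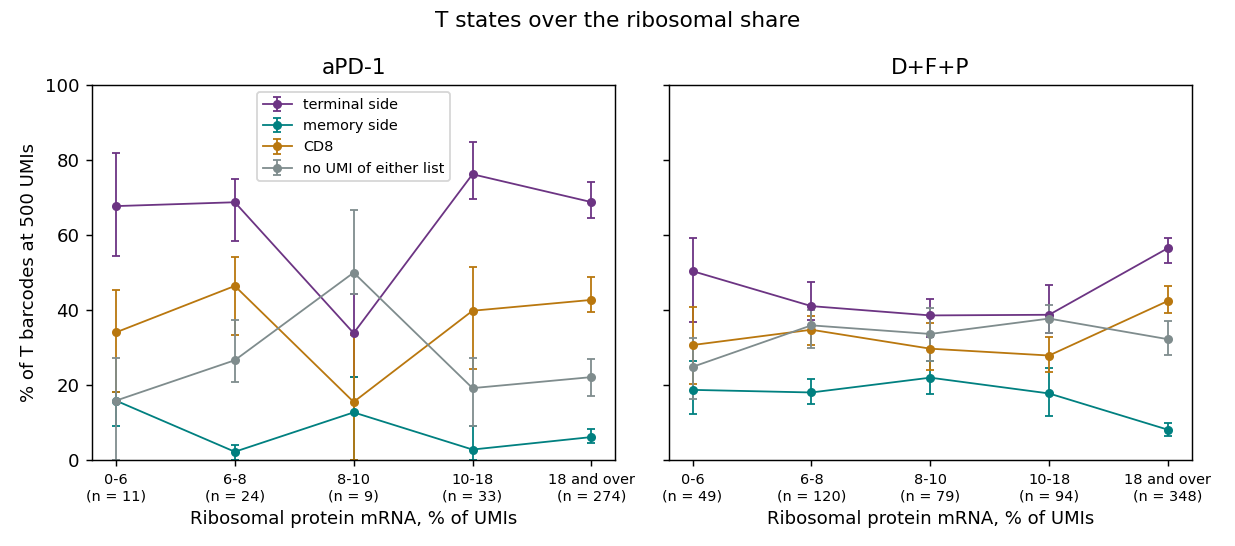
Percentage of T barcodes at 500 UMIs (y axis; mean of 20 draws, bars from the lowest to the highest draw) on the terminal side, on the memory side, with Cd8a or Cd8b1 but without Cd4 (CD8), or with no UMI of either side list, by ribosomal protein share (x axis, with the number of barcodes) in aPD-1 and D+F+P. In D+F+P the memory side stays between 17.8 and 22.0% up to 18% ribosomal and is 8.16% above that, and the aPD-1 bins under 10% hold 9 to 24 barcodes each.

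CD8 was the lineage seen most. A Cd8a or Cd8b1 UMI with no Cd4 UMI was in 111 of 223 D+F+P members (49.8%), 20 of 40 in aPD-1 and 7 of 12 in D+F, against 69.9, 70.0 and 67.9% of ribosomal-rich T barcodes. At 500 UMIs the values were 32.8% (28.3 to 37.2) and 39.6% (35.7 to 43.7) in D+F+P, 35.4% and 42.6% in aPD-1, and 40.0% and 36.2% in D+F, with overlapping ranges in D+F+P. Cd4 was in 5 of 223, 0 of 40 and 0 of 12 members, and in 11.3, 15.3 and 13.6% of ribosomal-rich T barcodes. In 2 of the 5 a Cd8a or Cd8b1 UMI was also present. At 500 UMIs Cd4 was in 1.21% of D+F+P members (0.897 to 1.79 over draws) and 2.51% of ribosomal-rich T barcodes (1.13 to 3.17), with overlapping ranges. Foxp3, the transcription factor of regulatory T cells, was in 0 of 223 D+F+P members, which allows up to 1.35%, 0 of 40 in aPD-1 (up to 7.50%) and 1 of 12 in D+F, against 1.58, 4.25 and 3.12% of ribosomal-rich T barcodes at 500 UMIs. At 500 UMIs the D+F+P members were at 0 as well. The ribosomal-rich draws of D+F+P ran from 0.905 to 2.49%, a range that holds the members' limit. Draws of the same barcodes leave out counting error, so whether Foxp3 differs between the sets was not decided. Of the gamma delta T genes, Trdc had 1 UMI and Tcrg-C1 none in the 223 members.

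The genes outside the lists that separate the 2 sides were compared in the D+F+P members, 109 terminal against 55 memory barcodes. A gene was counted when equal levels would give at least 10 UMIs in each set, and called at 1.5-fold. Of 722 genes counted, 140 were called higher on the terminal side (19.4%) and 123 lower (17%). The terminal side had more of Prf1 (perforin), with 1045 against 25.4 CPM (124 and 1 UMIs, log2 5.36, interval 2.86 to 10.7), and of Gzmb (granzyme B), with 2233 against 559 CPM (log2 2.0, 1.37 to 2.70). It also had more of the tissue residence chemokine receptor gene Cxcr6 (log2 2.29), the interleukin 2 and 15 receptor chain gene Il2rb (1.42), the protease inhibitor gene Serpine2 (4.73, 80 and 1 UMIs), the integrin gene Itgav (2.36), the unconventional myosin gene Myo10 (5.04, 99 and 1 UMIs) and the topoisomerase gene Top2a (3.99, 48 and 1 UMIs). The memory side had more of Emb (embigin), at -1.66, Fos at -1.91, Zfp36l2, an RNA-binding repressor, at -1.51, Camk4, a calcium-dependent kinase, at -1.55, the adaptor gene Grap2 at -1.82, Gramd3 at -1.75, Fryl at -1.59 and Ssh2, a cofilin phosphatase, at -1.67. Cd8a and Cd8b1 were both called higher on the terminal side (summed log2 1.27, 0.67 to 1.92). Of 8 cytotoxic genes counted 3 were called higher and 3 lower (summed log2 0.38, 0.20 to 0.57), and of 12 T cell receptor signalling genes 1 higher and 3 lower (-0.39, -0.55 to -0.23). With every barcode thinned to 500 UMIs, 252 genes were counted, of which 61 were called higher and 45 lower.

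The same contrast in ribosomal-rich T barcodes of D+F+P gave 4.54 for Prf1, 4.22 for Serpine2, 2.12 for Gzmb, 1.27 for Cxcr6, -2.40 for Emb, -2.28 for Ssh2, -1.16 for Zfp36l2 and -1.10 for Fos. These had the sign seen in the members. For Itgav (0.12), Il2rb (0.32) and Camk4 (-0.20) the ribosomal-rich values were nearer 0. Over 646 genes counted in both, the 2 sets of ratios had a Pearson r of 0.57 and a Spearman rho of 0.48, and 177 of 232 genes called in the members had the same sign in ribosomal-rich T barcodes. The points are genes of 1 library, which are not independent replicates, and the side lists used to split both sets were the same. Against ribosomal-rich T barcodes of aPD-1 the values were 0.42 and 0.38 over 456 genes.

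**Figure D4:**
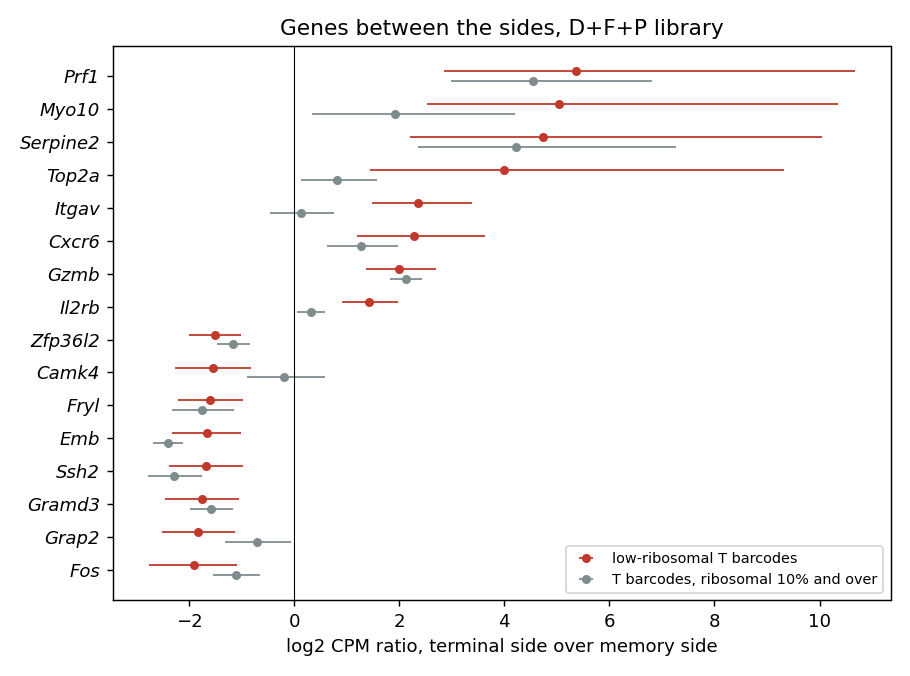
Log2 ratio of CPM, terminal over memory side (x axis), with exact 95% intervals, for the 16 genes named by rule (y axis) in low-ribosomal T barcodes and in ribosomal-rich T barcodes of the D+F+P library. All 16 have the same sign in both sets; Itgav and Camk4 lie near 0 in ribosomal-rich T barcodes, and the wide intervals of Prf1, Myo10, Serpine2 and Top2a come with 1 UMI on the memory side.

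The members were then set against ribosomal-rich T barcodes of the same library over all genes. The rule used this contrast, so the counts are background and nothing is read from them. In D+F+P 3360 genes were counted, of which 1101 were called higher in the members (32.8%) and 1190 lower (35.4%), with a median log2 ratio of -0.06. In aPD-1, at lower depth, 477 were counted, 36 called higher (7.55%) and 301 lower (63.1%), with a median of -0.94 over these abundant genes. Against ribosomal-rich T barcodes held to a 5 to 20% mitochondrial share, 1909 genes were counted in D+F+P, with 577 called higher and 303 lower. Ratios below are relative to the summed UMIs that are neither ribosomal protein nor mitochondrial.

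Genes of T cell receptor signalling leaned higher in D+F+P members. Of 19 counted, Prkca included, 11 were higher and 2 lower, with a median of 0.73. Over all genes counted in D+F+P, 32.8% were higher and 35.4% lower, with a median of -0.06. Among them were Ptprc, the CD45 phosphatase, with 2265 against 515 CPM (2.14, 1.97 to 2.29), the Tec family kinase gene Txk with 447 against 50.3 CPM (3.15), the calcium-dependent kinase gene Camk4 (1.93), the phosphatase gene Ptpn22 (1.49) and the costimulatory receptor gene Cd28 (1.21). Cd247, the CD3 zeta chain, was lower at -1.03, as was the adhesion receptor gene Cd2 at -0.85. In aPD-1 only Ptprc of this list was called higher among 6 counted (1.89), and 3 were called lower, Cd247 at -1.50, Cd2 at -0.90 and the adaptor gene Lat at -0.84. Over all genes counted in aPD-1, 7.55% were higher and 63.1% lower.

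The terminal side genes showed no common direction, beside 32.8% higher and 35.4% lower over all genes counted in D+F+P. Of 8 counted in D+F+P, Havcr2 was called higher and 2 lower, with a median of 0.05 and a summed log2 of -0.10 (-0.21 to 0.02). Pdcd1 stood at 653 against 624 CPM (0.07), Lag3 at 482 against 396 CPM (0.28), and Tox, the exhaustion transcription factor, at 171 against 150 CPM (0.18), all with intervals that span 0. Cd160, a receptor for HVEM, was lower at -2.55 (3 UMIs, -4.84 to -0.99), and Rgs16, a regulator of G protein signalling, was lower at -0.62. The 9 terminal genes also summed to a level near that of ribosomal-rich T barcodes in aPD-1, at -0.05 (-0.30 to 0.19).

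The memory side genes leaned higher in D+F+P members, with 3 of 5 counted called higher, 1 lower and a median of 1.20. Over all genes counted there, 32.8% were higher and 35.4% lower. Satb1, a chromatin organiser, stood at 246 against 53 CPM (2.21, 1.70 to 2.71), Lef1, the relative of TCF-1, at 131 against 46.1 CPM (1.5), and S1pr1, the receptor that guides T cells out of tissue, at 116 against 50.3 CPM (1.20). Ccr7, the lymph node homing receptor, was lower at 50.2 against 102 CPM (-1.02), and Klf2 was at 0.32 (-0.53 to 1.07). Summed over the list the log2 was 1.16 (0.91 to 1.39) in D+F+P and 0.00 in aPD-1 (-1.02 to 0.85, 11 UMIs in the members). Against ribosomal-rich T barcodes held to the same 5 to 20% mitochondrial share, the median of the list in D+F+P was -0.07, so its direction turned with the comparison set.

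Effector and proliferation transcripts were counted next, beside 32.8% higher and 35.4% lower over all genes counted in D+F+P. Of 13 cytotoxic genes counted in D+F+P, 7 were lower and 1 higher, with a median of -0.82. Ccl5, an effector chemokine, stood at 3059 against 8252 CPM (-1.43), Nkg7, a granule protein gene, at 1321 against 2992 CPM (-1.18) and Gzmb at 1577 against 2790 CPM (-0.82). Fasl, the death ligand, was higher at 271 against 82.1 CPM (1.72), and Prf1 was at 0.57. In aPD-1 7 of 10 cytotoxic genes were lower and none higher, a share near the 63.1% of all genes lower there. Of 15 cycling genes in D+F+P, 9 were lower and none higher, from Ube2c, which drives mitotic exit, at -3.30, and Birc5 (survivin) at -2.51, to Top2a at 0.38 and Mki67 at 0.56. Cd8a and Cd8b1 were at -0.32 and -0.72. Of the CD4 and regulatory genes, Ikzf2 (Helios) was higher at 1.33 and Tnfrsf4 (OX40) and Tnfrsf18 (GITR) were lower at -1.74 and -1.02.

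Other programmes were mixed. Over all genes counted in D+F+P, 32.8% were higher and 35.4% lower. The counts of interferon genes lower, and of immediate early and apoptosis genes higher, were near these shares, so nothing is read from them. Of 9 interferon genes counted in D+F+P, 1 was higher and 3 were lower, led by Ifi27l2a at 211 against 2567 CPM (-3.61). Of 15 immediate early genes 6 were higher, among them Jun at 1.56 and Fosb at 1.45, and 2 lower, with Jund at -1.71. Of 11 apoptosis and p53 genes 3 were higher and 1 lower: Bcl2l11, which encodes the BH3-only protein BIM, was at 2.0, and the pore-forming Bax at -1.81. Of 11 glycolysis genes 9 were lower, with Ldha (lactate dehydrogenase) at -1.62, and the glucose transporter genes Slc2a1 and Slc2a3 were higher at 0.82 and 1.20.

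Lists of transcript classes were counted in the same way, beside the same 32.8% higher and 35.4% lower over all genes in D+F+P. Malat1, a nuclear long noncoding RNA, stood at 16173 CPM in D+F+P members, 12437 in aPD-1, 6380 in D+F and 14184 in Control, against 2009, 2129, 1591 and 3026 CPM in ribosomal-rich T barcodes. It was thus above the ribosomal-rich value in all 4 libraries. Messages of splicing factors and of genes known to keep introns in the nucleus were higher in 12 of 16 and lower in none (median 1.71), with the kinase gene Clk1 at 2.04, the helicase gene Ddx17 at 2.46 and Son at 2.03. Messages that carry the same 5′ terminal tract as ribosomal protein mRNAs, other than those the rule used, were lower in 13 of 15 (median -1.74), with the elongation factor gene Eef1a1 at 3802 against 13801 CPM (-1.86) and Naca at -2.19. Eif4b (-0.26) and Pabpc1 (-0.42) were under the fold called. Short abundant cytosolic messages were lower in 21 of 22 (median -1.76), with Tmsb4x (thymosin beta 4) at -2.68, the calcium-binding S100a4 at -2.91, Sh3bgrl3 at -3.00 and Actb at -0.83. Nuclear-encoded respiratory chain messages were lower in 18 of 20 (median -1.48), from Atp5e at -2.39 to Atp5a1 at -0.32. All 13 mitochondrially encoded messages were higher. The rule set a floor on their summed share in the members, though not on each message, so nothing is read from this. In aPD-1 members 12 of 14 counted terminal tract messages (median -1.57), 18 of 20 short cytosolic messages (-1.44) and 15 of 18 respiratory chain messages (-1.17) were lower, and none was higher, beside 63.1% lower and a median of -0.94 over all genes.

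Other genes were named by their interval bounds, with values given for aPD-1 and then D+F+P. Beside Malat1 (log2 2.55 in aPD-1, 3.01 in D+F+P) the highest were the splicing regulator gene Mbnl1 (2.53, 2.31), the protein kinase C eta gene Prkch (2.47, 2.14), the scaffold genes Akap13 (2.19, 2.08) and Iqgap1 (1.93, 1.83), Ahnak (1.67, 1.83), Rbm39 (1.55, 1.73), Stat3 (1.60, 1.51), Slc3a2 (1.98, 1.27) and Ptprc. The lowest were Ifi27l2a (-3.26, -3.61), Tmsb4x (-2.85, -2.68), Cd52 (-2.78, -2.18), S100a6 (-2.64, -2.37), S100a10 (-2.81, -2.16), the galectin gene Lgals1 (-2.51, -2.20), the complex I gene Ndufa2 (-4.05, -2.52), Tpt1 (-2.18, -2.12), Eef1a1 and Fau (-2.15, -2.07). Fau encodes a ubiquitin-like protein fused to a ribosomal protein, and its symbol kept it out of the ribosomal share. The 2 libraries' ratios had a Pearson r of 0.81 and a Spearman rho of 0.78 over 477 genes, and 360 of the 370 genes called in D+F+P and counted in both had the same sign. Genes are not independent, and both contrasts were used by the rule.

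The same lists were counted in low-ribosomal barcodes of other types. In D+F+P NK barcodes (42 low-ribosomal, 52 others) 62.1% of all 451 genes counted were lower and 11.5% higher, with a median of -0.99. Against this the terminal tract messages were lower in 13 of 14 (median -1.99), short cytosolic messages in 18 of 21 (-1.83) and respiratory chain messages in 13 of 16 (-1.14), and splicing messages were higher in 4 of 6 (1.37). The respiratory chain median in NK barcodes was thus near that of all genes. For melanoma barcodes of D+F+P (28 and 471) 34.4% of 3458 genes were lower and 28.9% higher (median -0.12), and the list counts were 13 of 15 (-1.32), 13 of 18 (-1.22) and 16 of 20 (-1.71) lower, and 15 of 16 splicing messages higher (1.52). Malat1 was at 2.88 in NK and 2.47 in melanoma barcodes. Tmsb4x was at -2.94 in NK barcodes and at 0.20 in melanoma barcodes. Over genes counted in both, the T ratios in D+F+P had a Pearson r of 0.76 with those of NK barcodes (443 genes), 0.81 with melanoma barcodes of the same library (2339 genes) and 0.79 with melanoma barcodes of the control library (2422 genes). All were split at the same 10% ribosomal share. Cytotoxic genes were lower in 11 of 12 in NK barcodes, with a median of -3.13 beside -0.99 for all genes, and had a median of -0.82 beside -0.06 in T barcodes. The difference between the types was not tested.

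**Figure D5:**
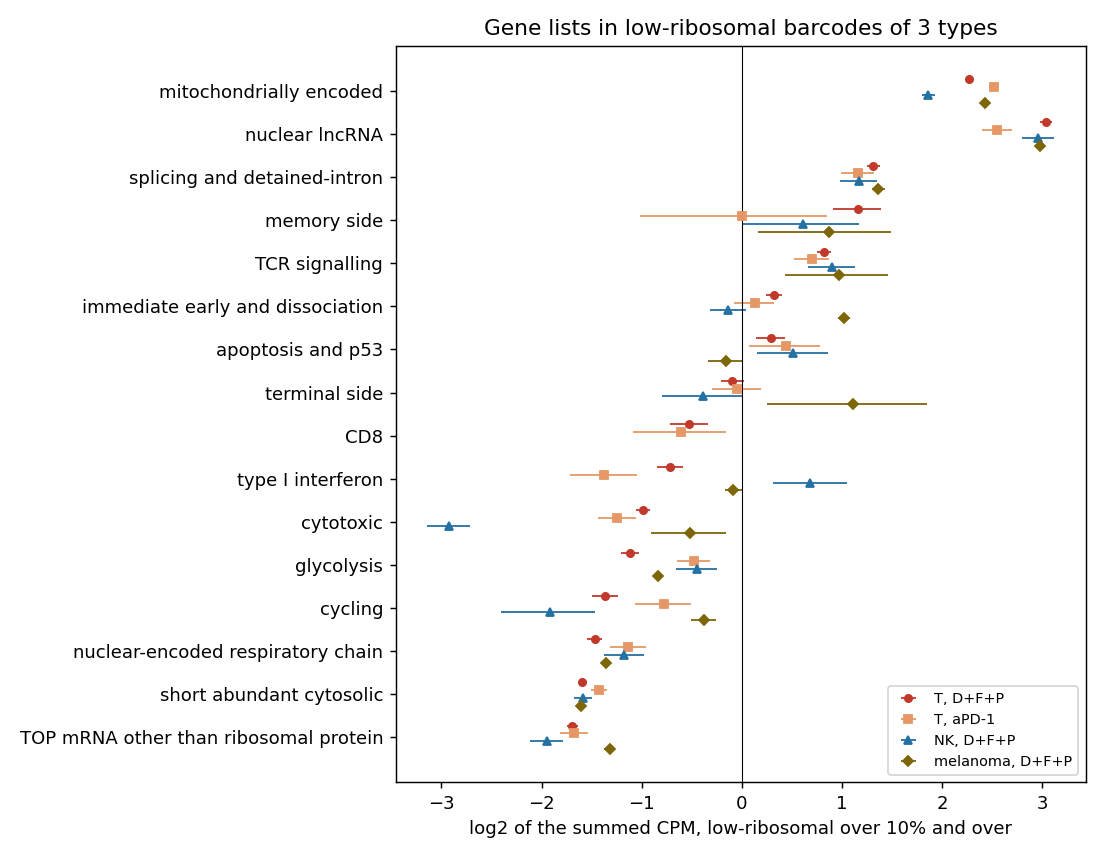
Log2 ratio of the summed CPM of each gene list (x axis), low-ribosomal over ribosomal-rich barcodes, with exact 95% intervals, for T barcodes of D+F+P and aPD-1 and for NK and melanoma barcodes of D+F+P (y axis: lists; a point is absent where the list had too few UMIs). Nuclear lncRNA, splicing and mitochondrially encoded lists lie above 0 for all 4, and the terminal tract (TOP), short cytosolic and respiratory chain lists lie below 0 for all 4.

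The direction of a gene went with its length in the genome. In D+F+P the median log2 ratio of members to ribosomal-rich T barcodes was -1.07 for the 484 counted genes that span under 5 kb, -0.53 for 1296 genes of 5 to 20 kb, 0.30 for 893 of 20 to 50 kb, 1.03 for 429 of 50 to 100 kb and 1.47 for 257 of 100 kb or more, of which 78.2% were called higher. In aPD-1 the 5 medians were -1.21, -1.06, -0.37, -0.30 and 1.45, the last over 12 genes. The same order was seen in low-ribosomal NK and melanoma barcodes, so it is not particular to T barcodes. In D+F+P the median under 5 kb was -1.52 for NK and -0.96 for melanoma barcodes, and at 100 kb or more 0.81 and 1.12. Genes of 100 kb or more gave 11.9% of UMIs in D+F+P members, 11.4% in aPD-1 and 9.01% in D+F, against 4.29, 4.32 and 4.13% in ribosomal-rich T barcodes. Genes under 5 kb gave 17.6, 18.6 and 20% against 31.8, 31.7 and 31.8%. Whether reads within introns were counted is not given in the sources used here. Beside the marker and state results, Themis spans 215 kb, Prkca 411 kb, Tox 305 kb, Satb1 97.1 kb, Lef1 114 kb and Bach2 347 kb, whereas Havcr2 spans 26.3 kb, Tcf7 30.6 kb, Neat1 20.8 kb, Pdcd1 14.2 kb, Ccr7 10.9 kb, Lag3 7.3 kb, S1pr1 4.6 kb and Klf2 2.6 kb. The part of gene span in the memory side, marker and T cell receptor signalling values was not tested.

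Between libraries, the 223 members of D+F+P were compared with the 40 of aPD-1, a contrast the rule did not use. Of 498 genes counted, 72 were called higher in D+F+P (14.5%) and 45 lower (9.04%), with a median log2 ratio of 0.03. Thinned to 500 UMIs per barcode, 180 genes were counted, of which 29 were called higher and 15 lower. Higher in D+F+P members were Dusp2, a phosphatase that acts on MAP kinases, with 814 against 129 CPM (162 and 4 UMIs, log2 2.65, interval 1.27 to 4.55), Emb with 638 against 162 CPM (127 and 5 UMIs, 1.98), Ifrd1 with 623 against 162 CPM (1.95), Serpine2 (84 and 3 UMIs, 2.12, 0.53 to 4.43) and Ccl5 with 3059 against 1583 CPM (0.95). Lower were Ikzf2 with 417 against 1131 CPM (-1.44, -2.03 to -0.83), the glycolysis gene Tpi1 with 502 against 1292 CPM (-1.36), Atxn1 (-1.32), Rgs16 with 824 against 1809 CPM (-1.14) and Ldha with 859 against 1841 CPM (-1.10). In ribosomal-rich T barcodes of the same libraries the ratios were 2.0 for Dusp2, 0.79 for Emb, -0.63 for Rgs16, -0.53 for Tpi1, -0.32 for Ikzf2 and -0.22 for Ldha, with the sign seen in the members. They were -0.03 for Ifrd1, 0.17 for Serpine2, 0.14 for Ccl5 and 0.29 for Atxn1. Over the 498 genes the Pearson r was 0.37 and the Spearman rho 0.28, and 84 of the 117 called genes had the same sign.

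By list, all 8 glycolysis genes counted were lower in D+F+P than in aPD-1 members. The median was -0.99 and the summed log2 of the list -0.93 (-1.11 to -0.74). Over all 498 genes counted, 14.5% were called higher and 9.04% lower. Of 4 terminal side genes 2 were lower and none higher (summed -0.51, -0.78 to -0.24). The memory side genes could not be counted singly, and their sum was higher in D+F+P members, 174 against 11 UMIs (log2 1.30, 0.42 to 2.33). Cd8a and Cd8b1 summed to -0.06 (-0.54 to 0.45). Pigment gate genes were lower in D+F+P members, 794 against 1744 CPM, and the part of melanoma RNA in the glycolysis values was not tested. Each library stands for 1 group, so library and treatment cannot be told apart. The D+F and Control members, 12 and 2 barcodes, were under the 20 barcodes set as the minimum for gene ratios, and were not compared.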

How the data were processed

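Gene expression was measured in 4 libraries of tumour cells, 1 per group. The authors deposited raw UMI counts per gene and barcode with no normalization, made with Cell Ranger 3.1.0 on GRCm38 (mm10) per the submitters' processing notes. The annotation release and whether intronic reads were counted are not given in the sources used here. The files hold 31053 genes, of which 31011 matched GENCODE vM21 by identifier, used for positions and spans. Barcodes with at least 300 genes and 500 UMIs were used. No doublet caller was run; the NK and pigment gates stood in for one. The members and all lists were chosen with earlier results of these data known, so they support nothing independently.

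UMIs were summed per library and set and divided by all UMIs other than those of 94 ribosomal protein and 13 mitochondrial genes (CPM). Shares carry Clopper-Pearson intervals, levels exact Poisson intervals and ratios exact conditional binomial intervals, all at 95%. Genes needed 10 expected UMIs in each set, sets needed 20 barcodes, and a call needed 1.5-fold. A share of 0 is limited by 3 counts. Barcodes were thinned to 500 UMIs, ribosomal protein and mitochondrial UMIs included, in 20 seeded draws. Named genes were the 4 marking genes, up to 4 at each end of every list, and those with the interval bound farthest from 0 (10 each way against ribosomal-rich T barcodes, 8 between sides, 5 between libraries), leaving out gate, ribosomal, mitochondrial, receptor segment and unnamed genes. The 19 lists and 13 marker lists hold 324 symbols, 316 of them in the files; some named by this rule are not reported here. Another 14 settings of the filters, gates and scaling were tried, and 3 more were added after the data were seen. Scripts were tested on simulated counts. Python 3.11.15, numpy 2.4.6, scipy 1.17.1, pandas 2.3.3 and matplotlib 3.10.9 were used.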

Additional observations from a re-analysis of the deposited data

How the results depend on the processing

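Members as a share of T barcodes moved beyond counting error in D+F+P to 22.3% and 37.4% at ribosomal limits of 8% and 12%, 21.7% with a T gate of 3 UMIs, 17.6% with a minimum of 1000 UMIs and 27% without the NK gate (added after the data were seen). In aPD-1 it moved to 5.43% (T gate of 3), 5.05% (1000 UMIs) and 8.25% (no NK gate). In Control it was 0 at a limit of 8%, with no pigment UMI allowed and at 1000 UMIs. The terminal share of D+F+P members became 62.8% (T gate of 3), 69.4% (1000 UMIs), 41.7% (thinned) and 13.0% (Havcr2 against Tcf7 alone), and the memory share 18.6%, 17.6% and 5.83% under the first, second and last. In aPD-1 the terminal share became 87.5% (1000 UMIs) and 22.5% (Havcr2 against Tcf7), and the memory share 0 with Cd3d, Cd3e, Cd3g and Trac alone as T gate and 0 for Havcr2 against Tcf7. The CD8 share in D+F+P was 32.8% thinned.

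The number of genes counted fell with these settings and is given beside the calls. Genes higher in D+F+P members than in ribosomal-rich T barcodes were 1101 of 3360 counted as reported. They were 577 of 1909 with the latter at 5 to 20% mitochondrial, 695 of 2497 with limits of 8% and 12%, and 507 of 2013 at 1000 UMIs. Genes lower were 303 of 1909 in the first, against 1190 of 3360. Between libraries 29 were higher and 15 lower of 180 counted thinned, and 28 lower of 351 with the narrower T gate, against 72 and 45 of 498. Between sides 140 were higher and 123 lower of 722 counted as reported. They were 52 and 32 of 186 with a T gate of 3, 68 and 77 of 330 with no pigment UMI, and 61 and 45 of 252 thinned. At a limit of 8%, 81 were lower of 412. The memory list median turned to -0.069 with ribosomal-rich barcodes at 5 to 20% mitochondrial, and the cycling list median between sides, 1.15 over 4 genes, turned to -0.12 thinned. Fewer barcodes or UMIs enter under these settings; the cause was not tested further.

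Of 140 results on shares and counts 103 stayed within the spread or 1.5 times, and of single genes and lists 611. In aPD-1, too few barcodes were left for gene ratios at 1000 UMIs (16 members) or with a 5 to 20% mitochondrial comparison set (17). The gene contrasts between sides at 1000 UMIs (15 memory barcodes) and for Havcr2 against Tcf7 alone (13 barcodes) were not run. No paired analysis was possible because each group is 1 library. The minimum of 10 expected UMIs limits aPD-1 members to abundant genes.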
